A study of Mus musculus with 6 samples.

Results

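The nuclear-encoded subunits of the mitochondrial respiratory chain were examined in 6 bulk RNA sequencing libraries of mouse aortic root, 3 labelled Sost-/- and 3 labelled Sost+/+. Genes were chosen by symbol (Nduf, Sdh, Uqcr, Cyc1, Cycs, Cox4 to Cox8 and Atp5 series), and 81 of the 84 symbols found among the 23420 rows of the count table reached the floor of 60 counts summed over the libraries. They comprise 35 genes of complex I, 4 of complex II, 9 of complex III, the carrier cytochrome c (Cycs), 15 of complex IV and 17 listed under complex V. The 3 genes under the floor were Ndufs5 and Cox8c, both listed at 0 in every library, and Cox7b2, with 33 counts in all. The symbol rule also takes in genes that sit elsewhere by function: Ndufa4 is counted here under complex I by its name but is now assigned to complex IV, and Atp5s and Atp5sl are not subunits of the ATP synthase.

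Both groups were C57BL6/J mice, 12 months old, kept on standard chow up to 4 months and on a high-cholesterol diet for the following 8 months. The first group was labelled as lacking both copies of Sost, the gene of the secreted Wnt antagonist sclerostin, and the others as wild type. The root is the first stretch of the aorta. It carries the valve and borders on heart muscle, so the RNA came from a mixture of cells. The study addresses calcific aortic valve disease. No label ties a library to an animal, so the p-values cover only how these 3 libraries per group varied, which may be technical.

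The respiratory chain sits in the inner mitochondrial membrane. Complexes I and II pass electrons from NADH and succinate to ubiquinone, complex III passes them to cytochrome c, and complex IV passes them to oxygen. Complex V, the ATP synthase, uses the proton gradient built by complexes I, III and IV to make ATP. Most subunits are encoded in the nucleus. Heart muscle is rich in mitochondria and uses its own isoforms of several complex IV subunits.

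Total counts were 41803775, 38870673 and 39365312 in the libraries labelled Sost-/-, against 48172863, 40756468 and 37023586 in those labelled Sost+/+. Sost itself was not lower in the libraries labelled Sost-/-. Its counts were 2284, 1063 and 513 there, against 354, 621 and 274 in those labelled Sost+/+ (log2 fold change 1.56, SE 0.48, edgeR adjusted p = 0.124). The groups overlapped, and gene counts alone cannot decide whether the labels are right, which was not tested. Every direction given here is therefore between libraries as labelled. Heart muscle was a large part of these samples: 28 cardiomyocyte markers summed to 96567 to 116284 CPM in the libraries labelled Sost-/- and to 136447 to 148850 CPM in those labelled Sost+/+. CPM are counts relative to library size, with library sizes scaled by the TMM method. Smooth muscle markers went the other way. They summed to 10827 to 12185 CPM in the libraries labelled Sost-/- and to 8375 to 9583 CPM in those labelled Sost+/+. Of 18 markers, 15 had a positive log2 fold change (Sost-/- over Sost+/+), with a median of 1.28. edgeR called 12 of the 18 higher, where it called 2.18% of all tested genes higher. The gene Pln was on both marker lists.

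Almost all subunit genes had lower levels in the libraries labelled Sost-/-, but none passed the test across all genes. The log2 fold change (Sost-/- over Sost+/+) was negative for 78 of 81 genes (96.3%), against 48.7% of the 15096 genes tested. Its median was -0.33, against 0.0066 over all tested genes, and it ran from -0.61 for Cox4i1 to 0.48 for Cox6b2. All 81 genes passed the filter on low counts. By edgeR's quasi-likelihood test with Benjamini-Hochberg adjustment at 0.05, 0 subunit genes were called higher and 0 lower, where 2.55% of all tested genes were called, 0.371% lower and 2.18% higher. The smallest adjusted p was 0.0883, for Atp5g2. At an unadjusted p under 0.05, 51 genes were lower (63.0%), against 8.62% of all tested genes (20.2% in either direction). A log2 fold change under -0.3 was seen in 51 genes (63.0%), against 9.8% of all tested genes. DESeq2 called 26 lower (32.1%) and 0 higher, where it called 2.87% of all tested genes lower and 7.98% in either direction. limma-voom called 0, where it called 2.35% of all tested genes.

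In 41 of the 81 genes (50.6%) every library labelled Sost-/- lay below every library labelled Sost+/+, as it did in 11.1% of all tested genes. In the other 40 the groups overlapped. The DESeq2 count depended on which library was left out. DESeq2 called 0 genes without Sost-/- library 3, 2 without Sost+/+ library 1, and 3 without either library 2. It called 25 without Sost-/- library 1 and 64 without Sost+/+ library 3. Of all genes, DESeq2 called 86 lower without Sost-/- 3, 213 without Sost+/+ 1, 306 without Sost-/- 2 and 264 without Sost+/+ 2. It called 487 of all genes lower without Sost-/- 1 and 709 without Sost+/+ 3. edgeR called 6 subunit genes lower without Sost+/+ library 3 and 0 with any other library left out. Of all genes, edgeR called 37 lower without Sost+/+ 3 and 0 to 36 in the other such runs.

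**Figure D1:**
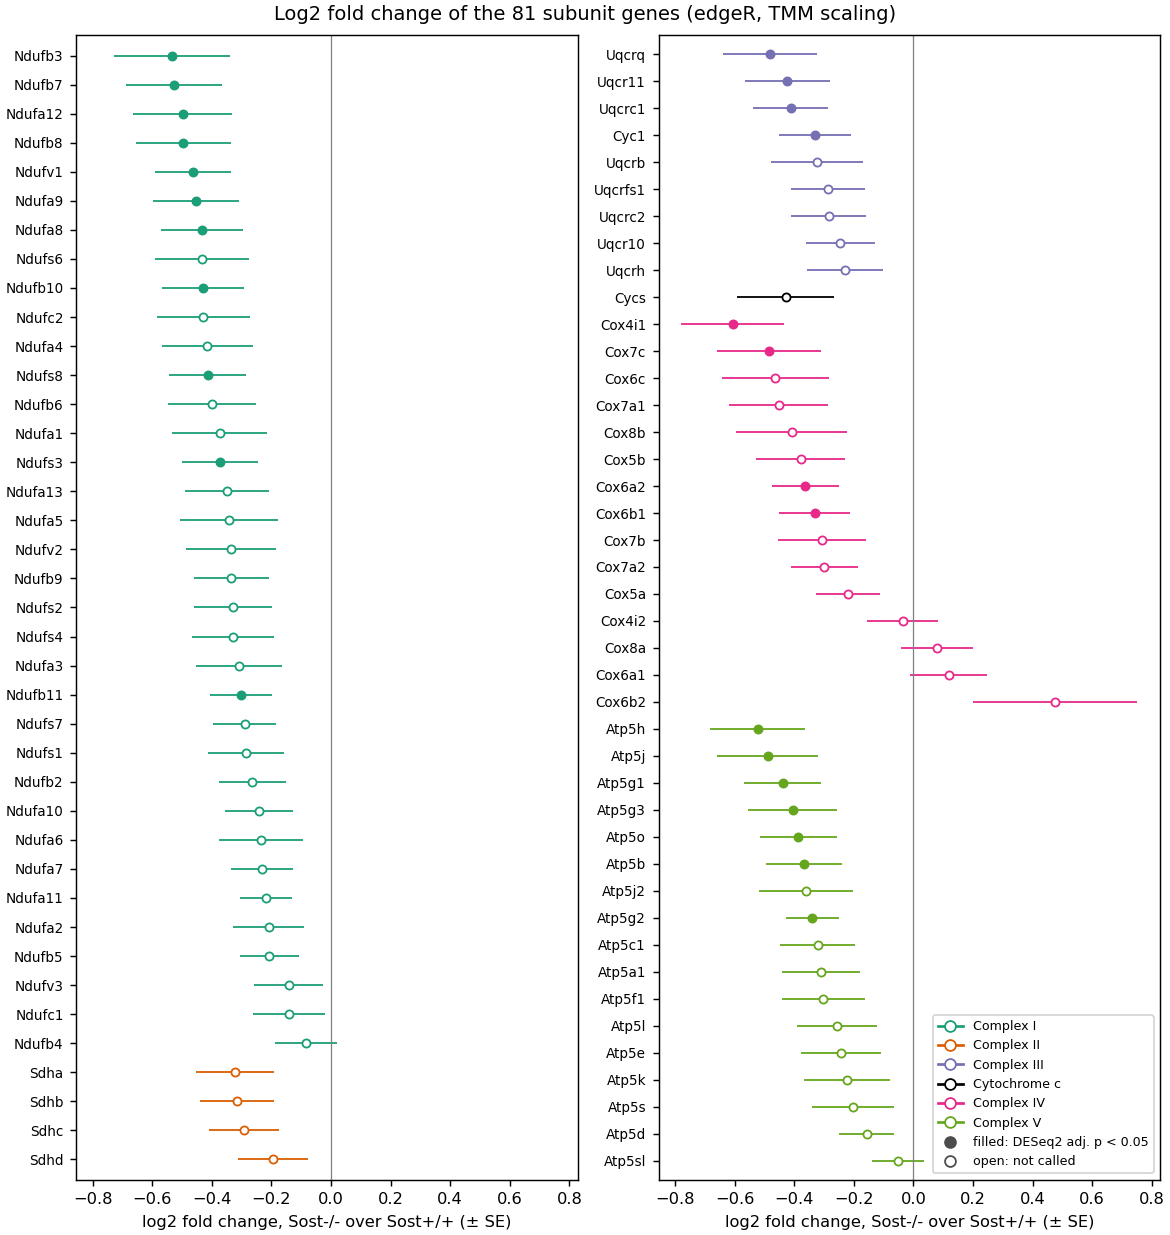
Log2 fold change of each of the 81 genes, Sost-/- over Sost+/+, with its SE as a horizontal bar, by complex; filled points passed DESeq2 at an adjusted p under 0.05 and open points did not. Of the 81 points, 78 lie left of 0, and Cox8a, Cox6a1 and Cox6b2 lie right of it.

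Summed over the 81 genes, expression was 39376, 36753 and 35870 CPM in the libraries labelled Sost-/-, against 55322, 47381 and 41013 CPM in those labelled Sost+/+. The mean was 37333 ± 1824 CPM in the libraries labelled Sost-/- and 47905 ± 7169 CPM in those labelled Sost+/+ (SD, n = 3 each), 22.1% lower in the libraries labelled Sost-/-. The groups did not overlap, but the library Sost+/+ 3 was only 1.10 times the Sost-/- mean, whereas Sost+/+ 1 was 1.35 times Sost+/+ 3. As a share of all counts, without scaling, the genes took 4.03%, 3.83% and 3.82% in the libraries labelled Sost-/-, against 5.12%, 4.57% and 4.04% in those labelled Sost+/+.

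The libraries labelled Sost+/+ also differed among themselves. Of the 81 genes, 75 (92.6%) were highest in Sost+/+ 1, as were 24.9% of all tested genes, and 2 were highest in Sost+/+ 2, as were 7.68%. In 75 genes the levels followed the order Sost+/+ 1 over 2 over 3, as in 23.9% of all tested genes. The median SD of log2 CPM was 0.0753 in the libraries labelled Sost-/- and 0.234 in those labelled Sost+/+. Over all tested genes it was 0.136 in the libraries labelled Sost-/- and 0.157 in those labelled Sost+/+. The SD was larger among the Sost+/+ libraries for 72 genes (88.9%), against 56.4% of all tested genes. The median log2 ratio of Sost+/+ 1 to Sost+/+ 3 was 0.46 over the subunit genes and -0.0022 over all tested genes.

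**Figure D2:**
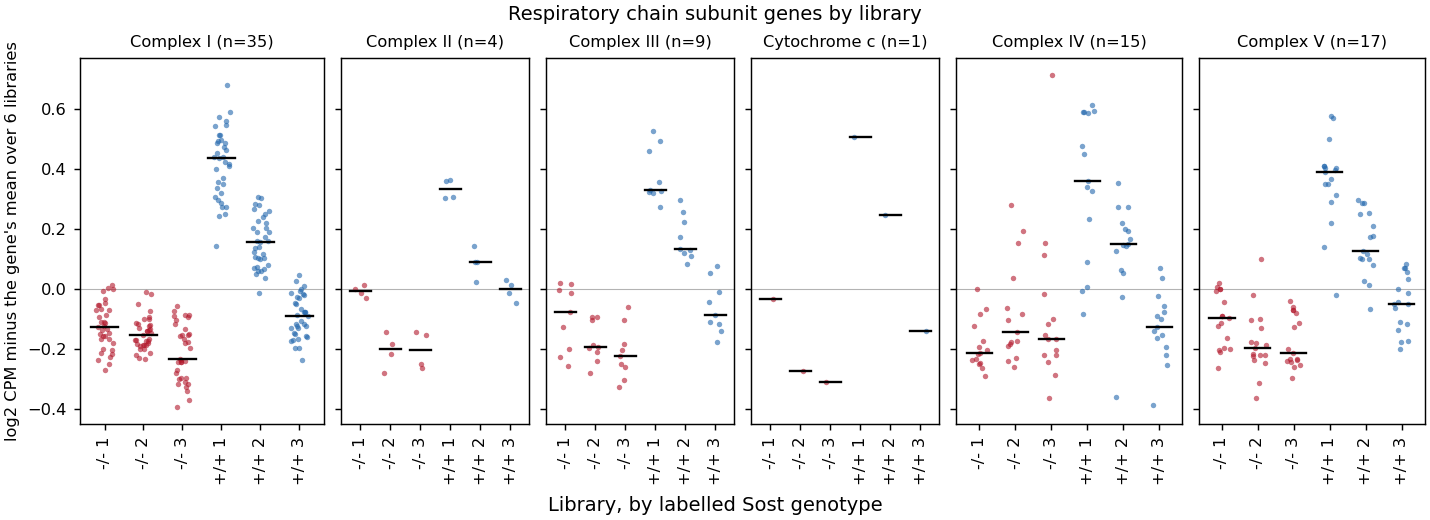
Each point is the log2 CPM of a subunit gene in a library minus that gene's mean over the 6 libraries, by complex, with black lines at the medians. In complex I the medians were -0.13, -0.15 and -0.23 in the libraries labelled Sost-/-, against 0.44, 0.16 and -0.09 in those labelled Sost+/+.

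Subunit genes and heart muscle markers were lower in the same libraries. Of 28 cardiomyocyte markers, 25 had a negative log2 fold change, with a median of -0.41. edgeR called 3 of them lower, the natriuretic peptide gene Nppb, the muscle LIM protein gene Csrp3 and the Z-disc gene Myoz2. DESeq2 called 16 lower. Of all tested genes, 48.7% were negative, edgeR called 0.371% lower and DESeq2 called 2.87% lower. The marker sum averaged 105753 ± 9927 CPM in the libraries labelled Sost-/- and 141507 ± 6509 CPM in those labelled Sost+/+ (SD, n = 3 each), a ratio of 0.747, where the subunit sum had a ratio of 0.779.

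Divided by the cardiomyocyte marker sum of the same library, the subunit sum was 0.339, 0.352 and 0.371 in the libraries labelled Sost-/-, against 0.372, 0.340 and 0.301 in those labelled Sost+/+. These ratios overlapped between the groups, with means of 0.354 ± 0.0165 in the libraries labelled Sost-/- and 0.338 ± 0.0356 in those labelled Sost+/+ (SD, n = 3 each). In bulk samples, fewer cells of a type and less RNA per cell cannot be told apart, and the part of cell mixture in the lower subunit levels was not tested. Within the Sost+/+ libraries the subunit sum differed by 1.35 times between libraries 1 and 3, while the marker sum differed little, from 148850 CPM in library 1 to 136447 CPM in library 3.

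**Figure D3:**
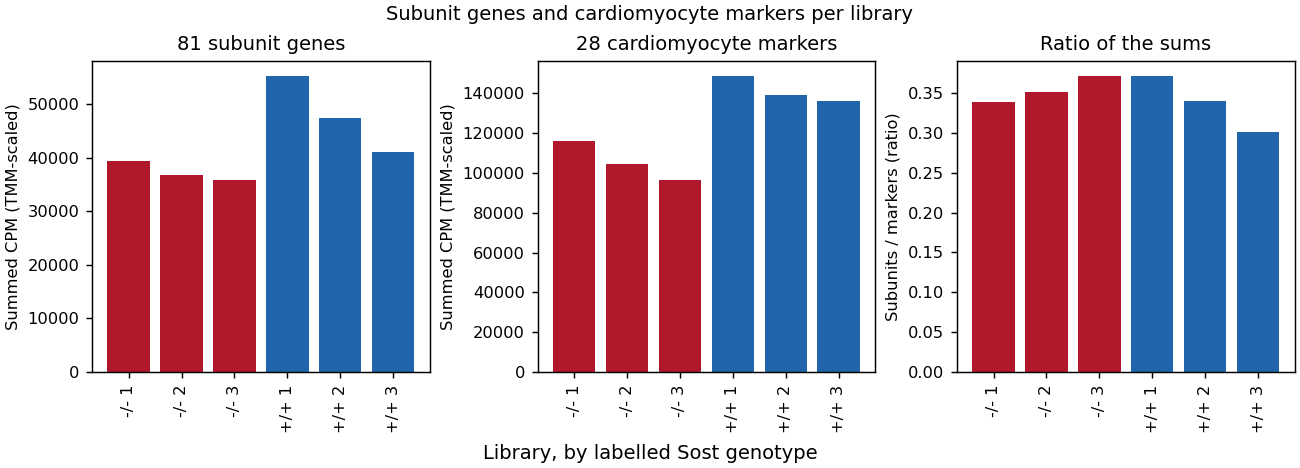
Bars give, for each library, the summed CPM of the 81 subunit genes, the summed CPM of the 28 cardiomyocyte markers, and the ratio of the sums. Both sums were lower in the 3 libraries labelled Sost-/-, and the ratios lay between 0.301 and 0.372 and overlapped.

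Brown fat is another mitochondria-rich tissue that can lie beside the aorta. Its defining marker Ucp1, the uncoupling protein, had 5.33, 83.6 and 92.7 CPM in the libraries labelled Sost-/-, against 6.19, 11.2 and 3.13 CPM in those labelled Sost+/+ (log2 fold change 3.14, edgeR adjusted p = 0.093). Of 8 brown fat markers, 6 were tested. They summed to 69.96 to 202 CPM in the libraries labelled Sost-/- and to 96.8 to 105 CPM in those labelled Sost+/+. Of these 6, 5 had a positive log2 fold change, with a median of 2.13. At an unadjusted p under 0.05, 3 were higher and 1 lower, edgeR called 0, and DESeq2 called 2 higher and 1 lower. White fat markers summed to 786 to 1910 CPM in the libraries labelled Sost-/- and to 509 to 992 CPM in those labelled Sost+/+. All 10 had a positive log2 fold change, with a median of 1.38. Of these, 8 were higher at an unadjusted p under 0.05, edgeR called 0 and DESeq2 called 2. Fibroblast markers summed to 8903 to 10278 CPM in the libraries labelled Sost-/- and to 8234 to 9184 CPM in those labelled Sost+/+, and 10 of 12 were positive, with a median of 0.23. At an unadjusted p under 0.05, 4 were higher, edgeR called 0 and DESeq2 called 3. The sums of brown fat, white fat and fibroblast markers overlapped between groups, as did those of macrophage markers (median 0.19) and endothelial markers (median -0.07). At an unadjusted p under 0.05, 3 macrophage markers were higher and 2 endothelial markers lower, and DESeq2 called 2 macrophage markers higher. Of all 15096 tested genes, 1755 were higher and 1301 lower at that p, and DESeq2 called 771 higher and 434 lower. Skeletal muscle markers summed to 814 to 1727 CPM in the libraries labelled Sost-/- and to 777 to 1947 CPM in those labelled Sost+/+. The part of these cell types in the lower subunit levels was not tested.

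Transcript length moved with the spread among Sost+/+ libraries. Over all tested genes with a principal transcript of up to 600 nt, the median log2 ratio of Sost+/+ 1 to Sost+/+ 3 was 0.38, against -0.06 for those over 2000 nt. The subunit genes are mostly short, 29 of 81 being up to 600 nt, and their ratio was 0.54 in that bin and 0.32 for the 7 genes over 2000 nt. The fold change between groups varied less with length. Subunit genes had medians of -0.31 up to 600 nt, -0.37 from there to 1000 nt, -0.33 to 2000 nt and -0.29 beyond, against -0.05, -0.10, -0.04 and 0.03 for all tested genes. The part of transcript length in the lower subunit levels was not tested.

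**Figure D4:**
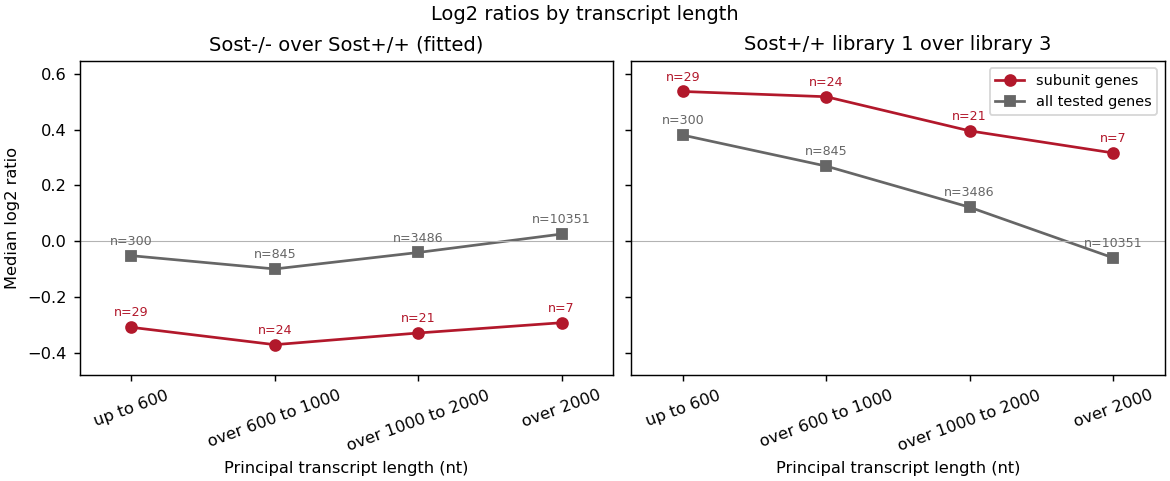
Median log2 ratio by principal transcript length in nt, for subunit genes (circles) and all tested genes (squares), for Sost-/- over Sost+/+ on the left and Sost+/+ library 1 over library 3 on the right. Subunit genes lie below all tested genes in each bin on the left, between -0.37 and -0.29, and above them in each bin on the right.

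Complex I oxidises NADH and is the largest complex. All 35 of its genes had a negative log2 fold change, with a median of -0.34. Of these, 23 were lower at an unadjusted p under 0.05, DESeq2 called 11, and 19 had no overlap between groups. Of all tested genes, 8.62% were lower at that p, DESeq2 called 2.87% lower, and 11.1% were lower without overlap. The complex I sum was 10079, 9736 and 9247 CPM in the libraries labelled Sost-/-, against 14650, 12249 and 10369 CPM in those labelled Sost+/+. By the means it was 22.02% lower in the libraries labelled Sost-/-.

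The 7 nuclear-encoded core subunits, which hold the flavin and the iron-sulphur clusters, had a median of -0.34, and so did the 28 accessory ones (Ndufa4 included). Ndufv1, the subunit that binds NADH and flavin, had 680, 655 and 577 CPM in the libraries labelled Sost-/-, against 996, 881 and 760 CPM in those labelled Sost+/+. Its log2 fold change was -0.46 (SE 0.13, edgeR adjusted p = 0.0968, DESeq2 adjusted p = 0.00466), and its groups did not overlap. Ndufv1 falls outside the naming rule and was chosen after its values were seen. Ndufs1, the largest iron-sulphur subunit, had 642, 561 and 543 CPM in the libraries labelled Sost-/-, against 820, 673 and 637 CPM in those labelled Sost+/+, with overlap. Its exons lie opposite those of Eef1b2, which had 57456 counts in all against 159267 for Ndufs1. The strand setting of the counting is not given, so reads of such pairs may not be told apart. Ndufs1 was likewise chosen after its values were seen.

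Accessory subunits of the membrane arm spanned the range of complex I. Ndufb3 had 177, 185 and 168 CPM in the libraries labelled Sost-/-, against 335, 255 and 177 CPM in those labelled Sost+/+. Ndufb7 had 228, 241 and 216 CPM in the libraries labelled Sost-/-, against 404, 336 and 248 CPM in those labelled Sost+/+. Their log2 fold changes of -0.53 (SE 0.19) and -0.53 (SE 0.16) were the lowest of the complex, with edgeR adjusted p of 0.174 and 0.123. Without Sost+/+ library 1 they were -0.30 for Ndufb3 and -0.37 for Ndufb7, and Ndufb8, at -0.35, then lay below Ndufb3. The groups overlapped for Ndufb3 and not for Ndufb7. At the other end, Ndufb4 had 72.1, 69.8 and 69.6 CPM in the libraries labelled Sost-/-, against 86.0, 71.7 and 66.5 CPM in those labelled Sost+/+. Ndufc1 had 129, 119 and 123 CPM in the libraries labelled Sost-/-, against 159, 135 and 115 CPM in those labelled Sost+/+. Both overlapped between groups, with log2 fold changes of -0.08 (SE 0.10) and -0.14 (SE 0.12).

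Per kilobase of transcript, Ndufa4 and Ndufb8 had the highest levels under the complex I symbols, averaging 1404 and 695 CPM per kb over the 6 libraries. Ndufa4 had 558, 530 and 543 CPM in the libraries labelled Sost-/-, against 873, 740 and 562 CPM in those labelled Sost+/+ (log2 fold change -0.42, SE 0.15, edgeR adjusted p = 0.177). Ndufb8, a membrane arm subunit, had 427, 398 and 351 CPM in the libraries labelled Sost-/-, against 672, 552 and 434 CPM in those labelled Sost+/+ (log2 fold change -0.50, SE 0.16, edgeR adjusted p = 0.135, DESeq2 adjusted p = 0.022). Neither overlapped, but in both Sost+/+ 3 lay just above the highest library labelled Sost-/-.

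Complex II is succinate dehydrogenase, the enzyme shared with the citric acid cycle, and is wholly nuclear-encoded. Its 4 genes lay close together, with log2 fold changes from -0.32 to -0.20, none called by edgeR or DESeq2. The flavoprotein gene Sdha had 1402, 1207 and 1169 CPM in the libraries labelled Sost-/-, against 1801, 1491 and 1431 CPM in those labelled Sost+/+ (log2 fold change -0.32, SE 0.13, edgeR adjusted p = 0.215). The iron-sulphur subunit gene Sdhb had 632, 568 and 542 CPM in the libraries labelled Sost-/-, against 829, 687 and 651 CPM in those labelled Sost+/+ (-0.32, SE 0.12). These did not overlap. The membrane anchor genes were Sdhc, with 428, 356 and 391 CPM in the libraries labelled Sost-/-, against 533, 477 and 428 CPM in those labelled Sost+/+, and Sdhd, with 340, 306 and 303 CPM in the libraries labelled Sost-/-, against 417, 342 and 327 CPM in those labelled Sost+/+. Sdhd overlapped between groups, and its log2 fold change was -0.20 (SE 0.12, edgeR adjusted p = 0.384). The complex II sum was 18.8% lower in the libraries labelled Sost-/-. By the sums, the largest difference among the complexes was in complex IV, at 24.8% lower. The median log2 fold change of complex IV was -0.33, close to the -0.34 of complex I, and its sum in Sost+/+ 1 was 1.48 times that in Sost+/+ 3.

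All 9 genes of complex III, the cytochrome bc1 complex, had a negative log2 fold change, with a median of -0.32. DESeq2 called 4 lower: the core protein gene Uqcrc1, the haem-bearing cytochrome c1 gene Cyc1, and the small subunit genes Uqcrq and Uqcr11. It called 2.87% of all tested genes lower. Uqcrq had 441, 451 and 432 CPM in the libraries labelled Sost-/-, against 746, 635 and 469 CPM in those labelled Sost+/+ (log2 fold change -0.48, SE 0.16, edgeR adjusted p = 0.14, DESeq2 adjusted p = 0.0235). Uqcr11 had 281, 313 and 283 CPM in the libraries labelled Sost-/-, against 462, 401 and 311 CPM in those labelled Sost+/+ (-0.42, SE 0.14). Uqcrq did not overlap between groups and Uqcr11 did. Uqcrh, the hinge protein that sits beside cytochrome c1, had 402, 411 and 408 CPM in the libraries labelled Sost-/-, against 562, 465 and 404 CPM in those labelled Sost+/+. Uqcr10 had 230, 247 and 253 CPM in the libraries labelled Sost-/-, against 329, 287 and 248 CPM in those labelled Sost+/+. In both, Sost+/+ 3 lay within the Sost-/- range, and edgeR adjusted p was 0.344 and 0.277. Cycs, which carries electrons from complex III to complex IV, had 408, 345 and 337 CPM in the libraries labelled Sost-/-, against 594, 495 and 379 CPM in those labelled Sost+/+ (log2 fold change -0.43, SE 0.16, edgeR adjusted p = 0.188).

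Complex IV, cytochrome c oxidase, held both ends of the range. Of its 15 genes, 12 had a negative log2 fold change, DESeq2 called 4 lower (Cox4i1, Cox7c, Cox6a2 and Cox6b1), and 7 had no overlap between groups. Of all tested genes, 48.7% were negative, DESeq2 called 2.87% lower, and 11.1% were lower without overlap. Cox4i1, at chr8:120668222-120674207 on the plus strand, encodes the common form of subunit IV, the nuclear-encoded subunit at which ATP binds. It had 1390, 1411 and 1296 CPM in the libraries labelled Sost-/-, against 2550, 2133 and 1557 CPM in those labelled Sost+/+. Its log2 fold change of -0.61 (SE 0.17) was the lowest of all 81 genes, with an edgeR adjusted p of 0.103 and a DESeq2 adjusted p of 0.00366. The groups did not overlap, and its exons lie opposite those of Emc8.

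Of the subunits without a second isoform gene, Cox6c had 566, 596 and 577 CPM in the libraries labelled Sost-/-, against 1009, 812 and 578 CPM in those labelled Sost+/+ (log2 fold change -0.46, SE 0.18, edgeR adjusted p = 0.196). Cox7c had 376, 381 and 355 CPM in the libraries labelled Sost-/-, against 654, 523 and 379 CPM in those labelled Sost+/+ (-0.48, SE 0.17, edgeR adjusted p = 0.17). In both genes Sost+/+ 3 lay within the Sost-/- range. Both are among the 40 genes whose groups overlapped.

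Several complex IV subunits exist as a muscle isoform (Cox6a2, Cox7a1, Cox8b in rodents) and an isoform found in most tissues (Cox6a1, Cox7a2, Cox8a). The muscle isoforms summed to 1323 ± 10.9 CPM in the libraries labelled Sost-/- and 1738 ± 309 CPM in those labelled Sost+/+ (SD, n = 3 each). The widely expressed ones summed to 490 ± 52 CPM in the libraries labelled Sost-/- and 528 ± 44.9 CPM in those labelled Sost+/+. Per kilobase, Cox6a2 stood 5.08 times over Cox6a1 in the libraries labelled Sost-/- and 7.08 times in those labelled Sost+/+, and Cox8b stood 3.37 times over Cox8a in the libraries labelled Sost-/- and 4.73 times in those labelled Sost+/+. Cox7a1 stood 2.14 times over Cox7a2 in the libraries labelled Sost-/- and 2.38 times in those labelled Sost+/+. Cox6a2 had 759, 692 and 743 CPM in the libraries labelled Sost-/-, against 1048, 904 and 868 CPM in those labelled Sost+/+ (log2 fold change -0.36, SE 0.11, edgeR adjusted p = 0.125, DESeq2 adjusted p = 0.00955), with no overlap. Cox6a1 had 98.0, 140 and 125 CPM in the libraries labelled Sost-/-, against 109, 120 and 106 CPM in those labelled Sost+/+ (log2 fold change 0.12, SE 0.13). Its groups overlapped, and the value was -0.00074 without Sost-/- library 2.

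Cox8b had 266, 312 and 283 CPM in the libraries labelled Sost-/-, against 490, 379 and 273 CPM in those labelled Sost+/+ (log2 fold change -0.41, SE 0.19, edgeR adjusted p = 0.259, and -0.20 without Sost+/+ library 1). Cox8a had 106, 144 and 140 CPM in the libraries labelled Sost-/-, against 126, 123 and 119 CPM in those labelled Sost+/+ (0.08, SE 0.12, and -0.0033 without Sost-/- library 2). Both overlapped between groups. Cox7a1 had 309, 309 and 298 CPM in the libraries labelled Sost-/-, against 531, 404 and 317 CPM in those labelled Sost+/+ (-0.45, SE 0.17, and -0.25 without Sost+/+ library 1). Cox7a2 had 227, 246 and 243 CPM in the libraries labelled Sost-/-, against 331, 296 and 254 CPM in those labelled Sost+/+ (-0.30, SE 0.11). Neither Cox7a gene overlapped, and neither passed edgeR (adjusted p = 0.179 and 0.189).

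The share of an isoform in its pair does not depend on library scaling. Of the Cox8 counts, Cox8b took 71.6%, 68.4% and 66.9% in the libraries labelled Sost-/-, against 79.5%, 75.5% and 69.6% in those labelled Sost+/+. The mean was 68.9% ± 2.41 in the libraries labelled Sost-/- and 74.8% ± 4.98 in those labelled Sost+/+ (SD, n = 3 each, exact two-sided permutation p = 0.2, where 3 against 3 cannot go below 0.1). Cox6a2 took 88.6%, 83.2% and 85.6% of the Cox6a counts in the libraries labelled Sost-/-, against 90.6%, 88.3% and 89.1% in those labelled Sost+/+, or 85.8% ± 2.71 in the libraries labelled Sost-/- and 89.3% ± 1.15 in those labelled Sost+/+ (exact permutation p = 0.2). Cox7a1 took 57.6%, 55.7% and 55.0% of the Cox7a counts in the libraries labelled Sost-/-, against 61.6%, 57.6% and 55.5% in those labelled Sost+/+, or 56.1% ± 1.33 in the libraries labelled Sost-/- and 58.3% ± 3.09 in those labelled Sost+/+ (exact permutation p = 0.4). These 3 shares overlapped between groups. Over the 8 shares compared, no adjusted p was below 0.4.

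Minor isoforms took small shares. Cox4i2, known from lung and induced by low oxygen, had 8.65, 9.30 and 8.95 CPM in the libraries labelled Sost-/-, against 9.01, 10.05 and 8.51 CPM in those labelled Sost+/+. Its share of Cox4i counts was 0.618%, 0.655% and 0.686% in the libraries labelled Sost-/-, against 0.352%, 0.469% and 0.544% in those labelled Sost+/+, without overlap (exact permutation p = 0.1, the smallest possible). The level of Cox4i2 overlapped between groups, and that of Cox4i1 did not. Cox6b2, known from testis, had 2.17, 2.81 and 4.18 CPM in the libraries labelled Sost-/-, against 2.69, 1.96 and 1.92 CPM in those labelled Sost+/+ (log2 fold change 0.48, SE 0.28, edgeR adjusted p = 0.368, and 0.18 without Sost-/- library 3). Its partner Cox6b1 had 427, 474 and 447 CPM in the libraries labelled Sost-/-, against 645, 557 and 495 CPM in those labelled Sost+/+ (-0.33, SE 0.12). The Cox6b2 share was 0.506%, 0.590% and 0.925% in the libraries labelled Sost-/-, against 0.416%, 0.350% and 0.387% in those labelled Sost+/+, or 0.674% ± 0.222 in the libraries labelled Sost-/- and 0.384% ± 0.0329 in those labelled Sost+/+, also without overlap (exact permutation p = 0.1).

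**Figure D5:**
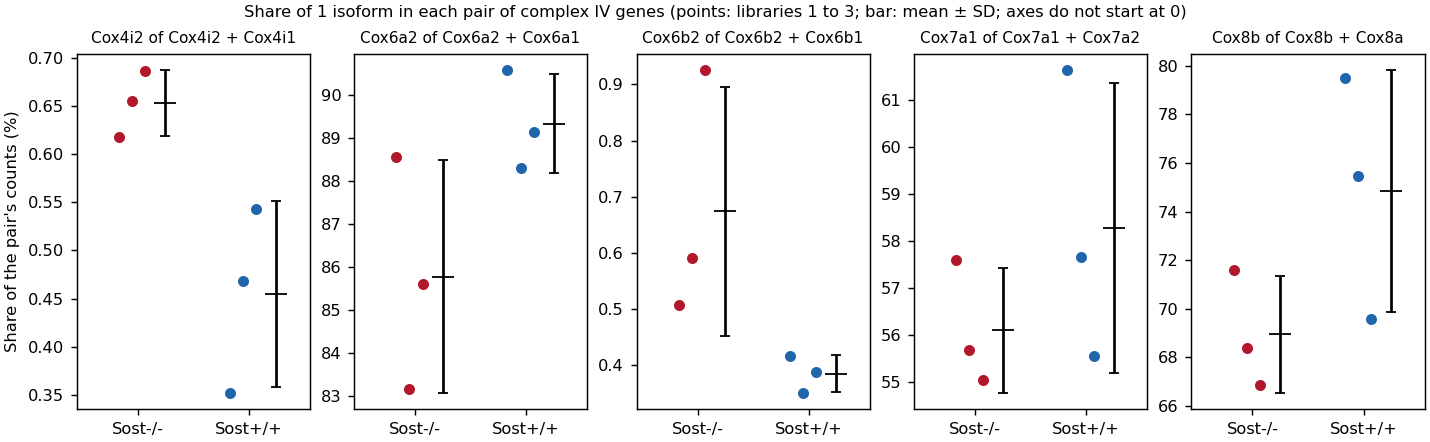
Share of an isoform in the counts of its pair, in %, for 5 pairs of complex IV genes; points are libraries and bars the mean ± SD, and the axes do not start at 0. The groups do not overlap for Cox4i2 and Cox6b2 and overlap for Cox6a2, Cox7a1 and Cox8b.

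The promoters of these isoforms differ in base composition, and a muscle and a widely expressed gene of both the Cox7a and the Cox8 pair are shown for that reason. Each line gives the 150 bases before an annotated start of the gene, 5′ to 3′ on the gene's strand, from RefSeq (GRCm38.p6, the assembly of mm10). Such a start need not be the outer end of the gene, and the stretch printed below for Atp5g2 lies inside that gene's annotated span. Capitals mark matches to searched motifs that end before the start.
Cox7a1 (chr7:30184021-30184170, plus strand): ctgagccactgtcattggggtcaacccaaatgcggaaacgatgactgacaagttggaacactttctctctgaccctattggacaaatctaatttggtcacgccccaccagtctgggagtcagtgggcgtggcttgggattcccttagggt
Cox7a2 (chr9:79759854-79760003, minus strand): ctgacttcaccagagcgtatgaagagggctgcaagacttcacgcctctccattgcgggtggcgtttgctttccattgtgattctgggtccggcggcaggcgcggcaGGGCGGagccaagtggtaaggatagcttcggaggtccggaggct
Cox8b (chr7:140900447-140900596, minus strand): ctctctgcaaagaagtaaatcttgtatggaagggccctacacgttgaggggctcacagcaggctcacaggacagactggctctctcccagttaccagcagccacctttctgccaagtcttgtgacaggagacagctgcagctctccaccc
Cox8a (chr19:7217617-7217766, minus strand): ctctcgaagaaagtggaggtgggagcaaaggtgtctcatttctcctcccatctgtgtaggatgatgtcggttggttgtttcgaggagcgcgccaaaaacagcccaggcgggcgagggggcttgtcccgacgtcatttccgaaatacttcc
The capitals in Cox7a2 are GGGCGG, a motif of SP factors. In Cox8a a match to CCGGAAG of ETS factors, on the opposite strand, begins at base -5. It runs across the start and is left in lower case. In windows of 300 bases, from 250 before to 50 after the start, Cox7a1 held 7 CpG and Cox8b 2, whereas Cox7a2 held 20 and Cox8a 19.

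Complex V makes the ATP. All 17 genes under its symbols had a negative log2 fold change, with a median of -0.32. DESeq2 called 7 lower, where it called 2.87% of all tested genes lower. The complex V sum was 15158, 13672 and 13611 CPM in the libraries labelled Sost-/-, against 20351, 17860 and 15964 CPM in those labelled Sost+/+. By the means it was 21.7% lower in the libraries labelled Sost-/-. In the catalytic head, Atp5b, the beta subunit that makes ATP, had the highest level per kilobase of all 81 genes, at 2542 CPM per kb over the 6 libraries. It had 4535, 4140 and 4086 CPM in the libraries labelled Sost-/-, against 5999, 5444 and 5019 CPM in those labelled Sost+/+ (log2 fold change -0.37, SE 0.13, edgeR adjusted p = 0.155, DESeq2 adjusted p = 0.00733). Atp5a1, the alpha subunit, had 3786, 3238 and 3165 CPM in the libraries labelled Sost-/-, against 4616, 4055 and 3963 CPM in those labelled Sost+/+ (-0.31, SE 0.13). Atp5d, the delta subunit of the central stalk, differed less, with 405, 381 and 400 CPM in the libraries labelled Sost-/-, against 459, 424 and 438 CPM in those labelled Sost+/+ (-0.16, SE 0.09, edgeR adjusted p = 0.372). None of these 3 overlapped between groups.

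The peripheral stalk holds the head still, and its 4 genes had a median of -0.44, against -0.31 for the 5 genes of the head. Within the libraries labelled Sost+/+, the stalk sum fell from 3867 CPM in library 1 to 2603 CPM in library 3. The head sum fell from 12390 to 10425 CPM. Atp5h, subunit d of the stalk, had 598, 579 and 559 CPM in the libraries labelled Sost-/-, against 1020, 838 and 636 CPM in those labelled Sost+/+ (log2 fold change -0.52, SE 0.16, edgeR adjusted p = 0.124, DESeq2 adjusted p = 0.013). Atp5j, coupling factor 6, had 467, 465 and 451 CPM in the libraries labelled Sost-/-, against 805, 658 and 478 CPM in those labelled Sost+/+ (-0.49, SE 0.17). Both had no overlap, with Sost+/+ 3 nearest to the other group. Without Sost+/+ library 1, Atp5h was at -0.36 and Atp5j at -0.32. The medians of stalk and head in that run are not given here. Atp5j lies opposite Gabpa. Atp5sl, also named Dmac2, had 43.2, 49.5 and 43.7 CPM in the libraries labelled Sost-/-, against 45.6, 46.7 and 49.0 CPM in those labelled Sost+/+ (-0.05, SE 0.09), and it overlapped.

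The rotating c ring is made from a protein that 3 genes encode, with different import sequences and the same mature form. Atp5g1 had 750, 643 and 676 CPM in the libraries labelled Sost-/-, against 1031, 982 and 792 CPM in those labelled Sost+/+ (log2 fold change -0.44, SE 0.13, edgeR adjusted p = 0.112, DESeq2 adjusted p = 0.00883). Atp5g2 had 112, 114 and 118 CPM in the libraries labelled Sost-/-, against 150, 153 and 132 CPM in those labelled Sost+/+ (-0.34, SE 0.09, edgeR adjusted p = 0.0883, DESeq2 adjusted p = 0.0098). Atp5g3 had 1031, 801 and 877 CPM in the libraries labelled Sost-/-, against 1370, 1229 and 988 CPM in those labelled Sost+/+ (-0.40, SE 0.15, edgeR adjusted p = 0.18, DESeq2 adjusted p = 0.0499). Only Atp5g3 overlapped between groups. Since the 3 genes are close copies in their mature part, reads there may be shared between them.

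Their proportions overlapped between groups. With 3 libraries against 3 the exact permutation p cannot go below 0.1, so the test could not call any of these differences and decides nothing here. Of the summed c-ring counts, Atp5g1 took 39.6%, 41.3% and 40.4% in the libraries labelled Sost-/-, against 40.4%, 41.5% and 41.4% in those labelled Sost+/+ (exact permutation p = 0.3). Atp5g2 took 5.94%, 7.31% and 7.06% in the libraries labelled Sost-/-, against 5.89%, 6.48% and 6.91% in those labelled Sost+/+ (exact permutation p = 0.5). Atp5g3 took 54.4%, 51.4% and 52.5% in the libraries labelled Sost-/-, against 53.7%, 52.0% and 51.7% in those labelled Sost+/+ (exact permutation p = 0.7). The promoters of the 3 genes, whose levels were all lower in the libraries labelled Sost-/-, are given as above.
Atp5g1 (chr11:96075632-96075781, minus strand): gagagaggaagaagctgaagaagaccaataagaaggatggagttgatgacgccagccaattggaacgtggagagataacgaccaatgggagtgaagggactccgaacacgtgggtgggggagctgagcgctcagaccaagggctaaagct
Atp5g2 (chr15:102671048-102671197, minus strand): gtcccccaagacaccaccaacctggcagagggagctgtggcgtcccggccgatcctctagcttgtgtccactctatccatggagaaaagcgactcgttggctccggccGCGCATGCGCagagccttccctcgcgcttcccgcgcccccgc
Atp5g3 (chr2:73911327-73911476, minus strand): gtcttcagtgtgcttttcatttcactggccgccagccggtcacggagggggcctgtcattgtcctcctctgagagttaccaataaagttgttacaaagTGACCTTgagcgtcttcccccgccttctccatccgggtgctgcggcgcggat
Capitals mark a match to the NRF1 motif in Atp5g2 and, on the opposite strand, to the motif AAGGTCA of oestrogen-related receptors in Atp5g3. In Atp5g2 a match to GGGCGG, on the opposite strand, begins at base -4. It runs across the start and is left in lower case. The 300-base windows of the 3 genes held 16, 20 and 21 CpG.

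RefSeq windows were found for 64 of the 81 genes, 69 windows in all. Both strands were searched for letters of factors known to control respiratory genes. The palindromic NRF1 motif was in 24.6% of subunit windows, against 4.60% of all 32851 windows. CCGGAAG of ETS factors was in 23.2%, against 8.86%, and AAGATGGC of YY1 in 13.04%, against 2.75%. AAGGTCA was in 10.1%, against 4.72%, while GGGCGG was in 37.7%, against 35.7%, and TATAAA in 10.1%, against 13.6%. The MEF2 motif was in 0 of 69 windows, against 3.19% of all. Subunit windows held a median of 19 CpG, against 7 over all windows, and no test was made of these shares.

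Other mitochondrial gene lists showed smaller differences in the same direction, and edgeR called 0 genes in each. The lists were assembled with earlier results of these data known. Their counts stand against all tested genes, of which 48.7% had a negative log2 fold change, 8.62% were lower at an unadjusted p under 0.05 and DESeq2 called 2.87% lower. Of 18 citric acid cycle genes, 18 had a negative log2 fold change, with a median of -0.23. At an unadjusted p under 0.05, 4 were lower, and DESeq2 called Idh2, the mitochondrial NADP-dependent isocitrate dehydrogenase. It had 1394, 1090 and 1064 CPM in the libraries labelled Sost-/-, against 1838, 1525 and 1472 CPM in those labelled Sost+/+ (-0.45, edgeR adjusted p = 0.141, DESeq2 adjusted p = 0.0193). Of 17 inner membrane carriers and coupling genes, 14 were negative, with a median of -0.24. At an unadjusted p under 0.05, 5 were lower and 1 higher, and DESeq2 called the ATP/ADP exchangers Slc25a4 (-0.31) and Slc25a5 (-0.25).

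Assembly factors, which build the complexes without staying in them, had medians of -0.15 for complex I (15 tested), -0.17 for complex II (4), -0.25 for complex III (6), -0.15 for complex IV (23) and -0.23 for complex V with its inhibitor (5). At an unadjusted p under 0.05, 3, 0, 1, 5 and 1 of them were lower in that order of complexes. The share of all tested genes lower at that p was 8.62%. DESeq2 called only Cox19 (-0.36, DESeq2 adjusted p = 0.00832) and Cox14 (-0.42, DESeq2 adjusted p = 0.0358) among them, where it called 2.87% of all tested genes lower. The members of smallest p in the other assembly lists were Timmdc1 (-0.35), Sdhaf1 (-0.17), Ttc19 (-0.28) and Tmem70 (-0.23). Their edgeR adjusted p was 0.126, 0.389, 0.226 and 0.242 in that order.

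Of 20 regulators of mitochondrial biogenesis, 18 were negative, with a median of -0.11, and 3 were lower at an unadjusted p under 0.05. Of all tested genes, 48.7% were negative and 8.62% were lower at that p. Esrra, an oestrogen-related receptor that activates respiratory genes, had 173, 178 and 121 CPM in the libraries labelled Sost-/-, against 228, 223 and 215 CPM in those labelled Sost+/+ (log2 fold change -0.50, SE 0.14, edgeR adjusted p = 0.107, DESeq2 adjusted p = 0.0145), with no overlap. Its coactivator gene Ppargc1a had 74.4, 68.0 and 73.4 CPM in the libraries labelled Sost-/-, against 87.1, 73.8 and 75.5 CPM in those labelled Sost+/+ (-0.13, edgeR adjusted p = 0.456), and it overlapped. Ppargc1a was chosen after its values were seen.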

How the data were processed

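The authors deposited a table of read counts per gene for the 6 libraries. Its 6 columns were matched to samples by title, and samples to groups by the genotype label. Per the submitters' processing notes, DRAGEN, HTSeq, DESeq2 and the build mm10 were used. What versions, annotation and strand option were used is not given in the sources used here. Per the labels' protocols, libraries were directional and made from total RNA. A second deposited table, of normalized values, was not used.

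Here genes were kept with filterByExpr in edgeR 4.0.16 (minimum count 10, minimum total count 15), scaled by TMM and tested by its quasi-likelihood F-test (R 4.3.3), and p-values were adjusted over 15096 genes by Benjamini and Hochberg's method at 0.05. SE was taken as |log2 fold change| over the root of F. Log2 CPM used a prior count of 2. Levels per kb use GENCODE M21 principal transcript lengths, a choice made after a first run. Isoform shares were compared by exact permutation. DESeq2 1.42.0 and limma 3.58.1 (voom) were alternatives, with other scalings, no filter, robust dispersion and each library left out. The same fit was checked on simulated counts with planted changes. No library pair was alike within sampling noise (chi-square per degree of freedom 34.1 to 170).

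The members, the lists and the subgroups by role were chosen with earlier results of these data known. Genes named with values were those of each isoform pair and of the c ring, and in each complex the 2 highest and 2 lowest fold changes and the 2 highest levels per kb, with the member of smallest p, or those called, in each other list. Ndufv1, Ndufs1, Ppargc1a and the marker Ucp1 fall outside this rule and were chosen after their values were seen. Exons of 23 subunit genes overlap another gene's, 2 of them on the same strand. Mitochondrially encoded subunits were not analysed here.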

Additional observations from a re-analysis of the deposited data

How the results depend on the processing

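The median log2 fold change of the 81 subunit genes was negative under every alternative run. It was -0.34 with DESeq2's size factors in edgeR, -0.31 with upper-quartile factors, -0.34 with TMM factors computed without muscle and subunit genes, -0.33 without the filter, -0.34 in DESeq2, -0.32 in limma-voom and -0.33 with robust dispersion. With library totals only it was -0.20, but that scaling moved the median of all tested genes to 0.13, and 75 of 81 genes were negative. With each library left out in edgeR it ran from -0.43 (without Sost+/+ 3) to -0.22 (without Sost+/+ 1), and 77 to 80 genes were negative.

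Counts of calls depended on the tool and on single libraries. The numbers of all genes called lower with a library left out are given above, and the totals for all genes here are for either direction. Against 0 subunit genes called lower, DESeq2 called 26, edgeR with a library left out called 0 to 6, and DESeq2 with a library left out, added after seeing the data, called 0 to 64 (25, 3 and 0 without Sost-/- 1, 2 and 3, and 2, 3 and 64 without Sost+/+ 1, 2 and 3). Of all genes, 385 were called, against 755 with library totals only, 1205 by DESeq2, 0 to 349 by edgeR with a library left out (0 without Sost+/+ 1, 10 without Sost-/- 3, 118 without Sost+/+ 3, 218 without Sost-/- 2), and 376 to 1356 by DESeq2 with a library left out (1245, 869, 376, 626, 979 and 1356 in the order above). Without Sost+/+ 1, where edgeR called 0 genes, 17 subunit genes had an unadjusted p under 0.05. The share of all tested genes at that p in the same run is not given here, so this count has no background. The cause of the dependence on tool and library was not tested.

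Of the 36 subunit genes named by the rule, 18 moved by over 1.5 times in edgeR with some library left out, 13 of them most without Sost+/+ 1. Without it, Atp5j was at -0.32, Cox6c at -0.28, Cox7a1 at -0.25, Cox7c at -0.30, Cox8b at -0.20, Cycs at -0.28, Ndufa4 at -0.27, Ndufb3 at -0.30, Ndufc1 at -0.031, Sdhd at -0.094, Uqcr10 at -0.15 and Uqcrh at -0.11. Cox6b2 ran from 0.18 (without Sost-/- 3) to 0.67, and Atp5sl from -0.12 to -0.016. Among these genes signs turned only for those near 0. With library totals only, Ndufb4 was at 0.043, Cox4i2 at 0.088 and Atp5sl at 0.072. With a library left out, edgeR values ran from -0.17 to 0.016 for Ndufb4, -0.096 to 0.028 for Cox4i2, -0.00074 to 0.25 for Cox6a1 and -0.0033 to 0.21 for Cox8a. Without Sost-/- 2, Cox6a1 was at -0.00074 and Cox8a at -0.0033 (-0.0105 and -0.0131 in DESeq2). Without Sost+/+ 1, Ndufb4 was at 0.016 (0.012 in DESeq2), and without Sost+/+ 2, Cox4i2 was at 0.028 (0.024 in DESeq2). No paired analysis was possible because the labels give no replicate numbers shared between the groups.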
